A study of Mus musculus with 8 samples.

Results

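The immediate early genes Fos, Fosb, Jun, Junb, Jund, Egr1, Ier2, Nr4a1 and Nr4a2, together with Klf4, were followed in mouse hematopoietic stem cells, the bone marrow cells from which every blood lineage descends. These 10 genes were taken by symbol from the 23358 genes of the count table. All 10 were in the table, and all 10 were among the 14086 genes that passed the filter on low counts and were tested. RNA-seq libraries had been made from uncultured bone marrow cells with the surface phenotype Lin-Sca+Kit+CD48-CD150+, which the sorter delivered into Trizol, and the labels give no treatment. There were 3 libraries labelled Huwe1 KO (Mx1-Cre), 2 labelled Huwe1 KO (Vav-Cre) and 3 labelled wild type (WT). The product of Huwe1 is a ubiquitin ligase of the HECT class. Mx1-Cre is an interferon-inducible recombinase that acts in blood and also in other tissues, and Vav-Cre is active throughout the blood system from development onward. The labels give no age, inducing agent or Cre line for WT, so what Cre or its induction does and what the loss of Huwe1 does cannot be told apart. Nothing in the labels says that the libraries came from separate animals, and the p-values then measure only the spread between these samples.

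Immediate early genes are transcribed within minutes of a stimulus without new protein synthesis, through factors such as SRF with its ELK partners and CREB that already sit in the cell. FOS and JUN proteins pair as the AP-1 transcription factor, EGR1 is a zinc finger factor, the NR4A proteins are orphan nuclear receptors, and IER2 is a nuclear regulator. Their transcripts are short-lived, are known to be raised by tissue dissociation and sorting, and in mouse stem cells EGR1 and the NR4A receptors are known for restraining division. KLF4 is a Kruppel-like zinc finger factor that restrains division in many cell types and takes part in monocyte development.

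Total counts were 28689765 to 33202926 per library, and the scaling factors (TMM, trimmed mean of M-values) were 0.961 to 1.03. Levels are given as CPM, read counts per library size after TMM scaling. Huwe1 itself averaged 418 ± 23.4 CPM in Mx1-Cre KO (SD, n = 3), 467 ± 32.2 CPM in Vav-Cre KO (n = 2) and 421 ± 20.5 CPM in WT libraries (n = 3), so a count over the whole gene does not check the knockout labels. Of the sorting markers, Kit stood at 982 to 2344 CPM over the 8 libraries, Ly6a, which encodes Sca-1, at 42.4 to 144 CPM, Slamf1, which encodes CD150, at 49.0 to 108 CPM, and Cd48 at 14.8 to 22.5 CPM. The stem cell marker Fgd5 fell with both lines averaged (-3.01 ± 0.24 SE, edgeR adjusted p = 0.000562). Summed over 11 neutrophil markers the level was 298 to 704 CPM in Mx1-Cre KO, 159 and 627 CPM in Vav-Cre KO and 995 to 1505 CPM in WT libraries. The 11 monocyte and macrophage markers summed to 60.1 to 91.2 CPM in Mx1-Cre KO, to 82.2 and 89.9 CPM in Vav-Cre KO and to 67.7 to 84.5 CPM in WT libraries. With both lines averaged 8 of these 11 had a negative log2 fold change (median -1.35), while Cd68 (0.67 ± 0.18, edgeR adjusted p = 0.0874) and Ms4a6c (0.95 ± 0.26, 0.0904), at 12.3 CPM or more in every library, were positive. None of the genes on these 2 lists was at 0 in every library of a group. The Vav-Cre KO libraries stood apart from each other for most of the 10 genes, and results are therefore given with and without each of them where that matters.

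Promoters were examined because immediate early genes are classically driven through short elements close to the start, among them the cyclic AMP response element (CRE) bound by CREB and AP-1 related factors. RefSeq promoter entries of GRCm38.p6 matched 8 of the 10 genes, all but Egr1 and Ier2, each reaching from 250 bases before to 50 bases after the annotated start. The CRE core TGACG, read on either strand (as CGTCA on the other), was present in 6 of the 8 windows, against 20.8% of all 32851 promoter windows of the same 300 bases. Nr4a1 and Nr4a2 each held 4 copies, a number reached by 0.231% of all windows, Fos held 2, Fosb, Junb and Klf4 held 1 each, and Jun and Jund held 0. The sequences below are the 250 bases before the start, 5′ to 3′ in the direction of the gene, with each CRE core in capitals. Klf4, Fos and Fosb are shown as the genes that lay wholly below WT in at least 1 line, Nr4a1 for its 4 cores, and Jun as a gene with none.
Klf4 promoter, chr4:55532476-55532725, minus strand: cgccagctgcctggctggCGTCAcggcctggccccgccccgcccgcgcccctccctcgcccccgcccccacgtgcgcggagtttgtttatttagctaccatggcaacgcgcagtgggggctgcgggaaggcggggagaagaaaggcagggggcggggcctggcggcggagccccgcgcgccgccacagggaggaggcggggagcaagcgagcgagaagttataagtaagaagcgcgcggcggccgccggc
Fos promoter, chr12:85473640-85473889, plus strand: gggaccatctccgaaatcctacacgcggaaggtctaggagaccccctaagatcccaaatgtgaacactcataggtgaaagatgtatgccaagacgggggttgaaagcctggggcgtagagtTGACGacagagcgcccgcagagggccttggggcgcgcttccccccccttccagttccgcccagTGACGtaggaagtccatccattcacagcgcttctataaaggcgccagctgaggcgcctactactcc
Fosb promoter, chr7:19310046-19310295, minus strand: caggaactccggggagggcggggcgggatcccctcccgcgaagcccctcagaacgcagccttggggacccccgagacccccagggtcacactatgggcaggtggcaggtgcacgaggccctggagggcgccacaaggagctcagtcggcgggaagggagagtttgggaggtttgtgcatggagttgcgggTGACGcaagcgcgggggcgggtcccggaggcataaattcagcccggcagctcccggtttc
Nr4a1 promoter, chr15:101266596-101266845, plus strand: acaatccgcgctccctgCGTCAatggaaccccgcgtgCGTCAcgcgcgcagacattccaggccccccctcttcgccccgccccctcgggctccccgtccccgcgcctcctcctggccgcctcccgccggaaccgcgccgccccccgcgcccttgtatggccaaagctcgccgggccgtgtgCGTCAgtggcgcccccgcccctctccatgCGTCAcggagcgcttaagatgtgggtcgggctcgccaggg
Jun promoter, chr4:95052223-95052472, minus strand: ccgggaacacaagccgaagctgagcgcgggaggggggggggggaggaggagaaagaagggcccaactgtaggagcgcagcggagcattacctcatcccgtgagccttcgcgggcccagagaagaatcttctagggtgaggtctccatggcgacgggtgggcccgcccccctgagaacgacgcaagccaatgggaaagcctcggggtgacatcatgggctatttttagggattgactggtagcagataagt

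Counted from the annotated start as 0, the CRE cores began at -129 and -66 in Fos, at -60 in Fosb, at -232 in Klf4, and at -233, -213, -69 and -40 in Nr4a1. The TATA box of Fos (TATAAA on either strand) began at -33. TATAAA was found in 3 of the 8 windows and in 13.6% of all windows. Besides Fos these were Junb, where it began at 0, and Nr4a2, where it began at -164. The full CRE TGACGTCA was found in 0 of the 8 windows and in 1.79% of all windows, so that no core above is part of one. The AP-1 site, TGACTCA or TGAGTCA, was found in 0 of 8 (5.2% of all windows), and the CArG box, the core of the serum response element, in 0 of 8 (1.63%). These are matches of letters in short windows and describe the sequence only. Elements more than 250 bases before the start, or any in Egr1 and Ier2, could not be found here. A count of 0 thus does not show that a gene lacks the element.

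The 10 genes were expressed at widely different levels, and Fos led in every group. Per kilobase of exon (GENCODE exons of GRCm38), Fos averaged 47.2 CPM in Mx1-Cre KO, 58.4 CPM in Vav-Cre KO and 80.1 CPM in WT libraries. In WT libraries Egr1 (16.1 CPM per kilobase), Ier2 (11.3), Jun (7.03), Fosb (5.74), Klf4 (4.19), Jund (3.38), Nr4a2 (2.11), Nr4a1 (2.04) and Junb (1.95) followed. The ranges over the 3 WT libraries did not touch between Fos and Egr1, between Ier2 and Jun, or between Jund and Nr4a2, and the other neighbours in that order overlapped. Klf4 held place 6 of 10 in WT, place 8 in Mx1-Cre KO (1.68 CPM per kilobase) and place 10 in Vav-Cre KO (1.13 CPM per kilobase). The library kit carried no strand information, so reads of Jund cannot be told apart from those of the antisense gene Gm11175, which shares 877 of its 1668 exon bases. The same holds for 232 bases that Jun shares with Junos and 173 that Junb shares with Prdx2.

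**Figure D1:**
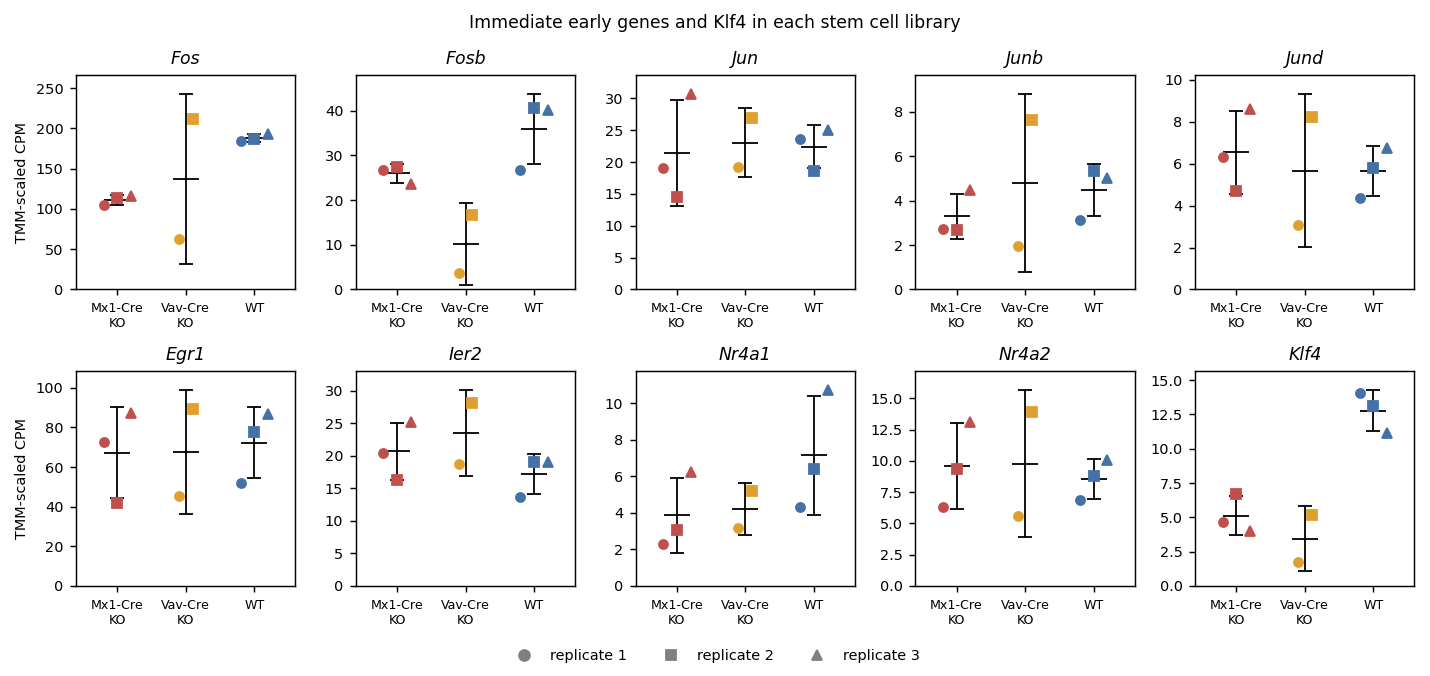
TMM-scaled CPM (y axis, linear, from 0, with its own scale per gene) of the 10 genes in Mx1-Cre KO (3 libraries), Vav-Cre KO (2) and WT (3), with the replicate number as the symbol and the mean ± SD as the horizontal lines. Klf4 lay at 1.75 to 6.71 CPM in the 5 knockout libraries and at 11.1 to 14.03 CPM in WT, whereas the Vav-Cre KO libraries of Fos, at 63.0 and 212 CPM, lay on both sides of WT.

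To ask whether the genes differed in cells labelled Huwe1 KO, the effects of the Mx1-Cre and Vav-Cre lines were averaged with equal weight and set against WT in 1 edgeR quasi-likelihood fit over all 8 libraries. A gene was called at a Benjamini-Hochberg adjusted p under 0.05 over all tested genes. Klf4 was the 1 gene of the 10 that was called, and it was lower, against a background of 2.65% of tested genes called in either direction and 2.1% called lower. An unadjusted p under 0.05 was reached by 2 of the 10 (16.5% of tested genes), Klf4 and Fosb. DESeq2 called both, and limma-voom called 1 gene. The median log2 fold change of the 10 was -0.14, with 3 positive and 7 negative values, and that of all tested genes was 0.000382.

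Klf4 was lower in every knockout library than in every WT library. It stood at 4.63, 6.71 and 3.98 CPM in the Mx1-Cre KO libraries, at 1.75 and 5.14 CPM in the Vav-Cre KO libraries, and at 14.03, 13.1 and 11.1 CPM in the WT libraries. These levels rest on 50 to 185 reads in the knockout and 358 to 425 reads in the WT libraries. Klf4 fell by 1.60 on the log2 scale (SE 0.33, 95% interval -2.34 to -0.86) with both lines averaged, with edgeR adjusted p = 0.0339. All 5 knockout libraries lay below all 3 WT libraries for 1 of the 10 genes and for 7.28% of tested genes. In bulk samples fewer cells of a type and less RNA per cell cannot be told apart. The summed neutrophil markers given above lay below WT in the same 5 libraries, with Mpo (-1.89 ± 0.21, adjusted p = 0.00339 in edgeR), Csf3r (-1.82 ± 0.30, 0.0163) and Elane (-2.30 ± 0.49, 0.0369) called lower among 11 tested. The monocyte marker Ly6c2 also lay below WT in all 5 knockout libraries, at 6.61, 2.58 and 3.73 CPM in Mx1-Cre KO, at 0.771 and 8.86 CPM in Vav-Cre KO and at 18.98, 16.5 and 15.3 CPM in WT libraries (-1.89 ± 0.56 with both lines averaged, edgeR adjusted p = 0.118). Csf1r and Cd14, at 0.0620 to 3.10 and 3.19 to 6.31 CPM over the 8 libraries, overlapped between the 5 knockout libraries and WT, although both Vav-Cre KO libraries of Csf1r lay below WT. Of the 11 monocyte and macrophage markers edgeR called 0, with 4 at an unadjusted p under 0.05, and their median log2 fold change was -1.35. DESeq2 called 2 higher and 1 lower, and limma-voom 1 lower. The part of such cells in the Klf4 result was not tested.

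In each line alone Klf4 also lay below WT in every library, but did not pass in the fit over all 8 libraries. The log2 fold change was -1.32 ± 0.38 in Mx1-Cre KO (edgeR adjusted p = 0.104) and -1.88 ± 0.45 in Vav-Cre KO (adjusted p = 0.101). A fit of the Mx1-Cre KO and WT libraries alone, whose spread was smaller, called it (-1.32 ± 0.26, edgeR adjusted p = 0.0271, range over the 15 alternatives 0.0186 to 0.289), and DESeq2 called it in both lines. The call with both lines averaged was lost without WT 1, 2 or 3 (edgeR adjusted p = 0.124, 0.148 and 0.115) and without Mx1-Cre KO 1 or 3 (0.0749 and 0.0513), while the log2 fold change stayed between -2.09 and -1.32 over its 14 alternatives (adjusted p 0.000429 to 0.148).

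Fos, which encodes the best-known partner of JUN in AP-1, was tight within the Mx1-Cre KO group and within the WT group. It stood at 104, 113 and 116 CPM in the Mx1-Cre KO libraries and at 184, 187 and 193 CPM in the WT libraries, so that these groups did not overlap. The ratio of the highest to the lowest library was 1.11 in Mx1-Cre KO and 1.05 in WT, where 7.13% and 2.71% of tested genes had a smaller one. The Vav-Cre KO libraries, at 63.0 and 212 CPM, were the lowest and the highest of all 8. The log2 fold change was -0.76 ± 0.33 in Mx1-Cre KO (edgeR adjusted p = 0.274), -0.45 ± 0.37 in Vav-Cre KO (0.657) and -0.61 ± 0.29 with both lines averaged (0.328), and none of these passed.

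The call for Fos depended on whether the Vav-Cre KO libraries shared in the estimate of spread. With Mx1-Cre KO and WT alone in the fit Fos fell by 0.76 on the log2 scale (SE 0.11, edgeR adjusted p = 0.00874, range over the 15 alternatives 0.00874 to 0.506). With either Vav-Cre KO library left out of the larger fit, the value in that comparison was again -0.76 (SE 0.11). A lone Vav-Cre KO library adds nothing to the estimate of spread. These fits thus nearly repeat that of Mx1-Cre KO and WT alone and are no separate support. Without Vav-Cre KO 2 the average of both lines was -1.17 (adjusted p = 0.00304) and the Vav-Cre value -1.58 (0.0139), and without Vav-Cre KO 1 the Vav-Cre value was 0.17. In these fits the lone Vav-Cre KO library is assumed to vary like the other groups.

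Fosb, a FOS relative that also forms AP-1, was lower than every WT library in both Vav-Cre KO libraries. It stood at 26.8, 27.5 and 23.6 CPM in Mx1-Cre KO, at 3.71 and 16.7 CPM in Vav-Cre KO and at 26.8, 40.7 and 40.1 CPM in WT libraries. The Mx1-Cre KO values thus overlapped WT 1 and lay below WT 2 and WT 3. The log2 fold change was -0.47 ± 0.41 in Mx1-Cre KO (edgeR adjusted p = 0.634), -1.81 ± 0.49 in Vav-Cre KO (0.139) and -1.14 ± 0.36 with both lines averaged (0.147). DESeq2 called the Vav-Cre and averaged values (adjusted p = 0.0031 and 0.0299). Without Vav-Cre KO 2 edgeR did so as well (-3.27, adjusted p = 0.0139, and -1.87, adjusted p = 0.00719), and the adjusted p over all alternatives ran from 0.0031 to 0.370 for Vav-Cre and from 0.00719 to 0.438 for both lines.

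**Figure D2:**
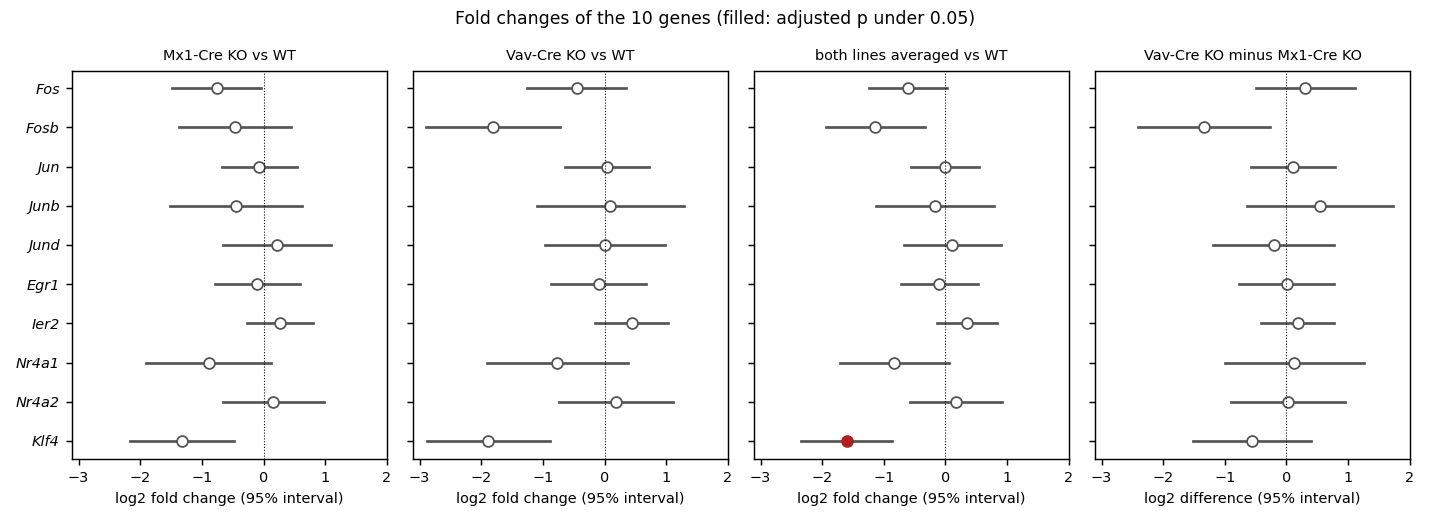
Log2 fold changes (x axis) of the 10 genes with 95% intervals from the edgeR fit over 8 libraries, in 4 panels for Mx1-Cre KO against WT, Vav-Cre KO against WT, both lines averaged against WT, and Vav-Cre KO minus Mx1-Cre KO, with a filled point for an adjusted p under 0.05. Klf4 with both lines averaged, at -1.60, is the single filled point.

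The JUN family, whose proteins form AP-1 among themselves or with FOS proteins, did not separate the groups. Jun stood at 19.0, 14.5 and 30.7 CPM in Mx1-Cre KO, at 19.2 and 26.8 CPM in Vav-Cre KO and at 23.7, 18.5 and 25.1 CPM in WT libraries, with a log2 fold change of -0.01 ± 0.25 for both lines (95% interval -0.57 to 0.54). The Mx1-Cre KO libraries of Jun span more than the WT range in both directions. Junb stood at 2.72, 2.68 and 4.47 CPM in Mx1-Cre KO, at 1.96 and 7.62 CPM in Vav-Cre KO and at 3.14, 5.32 and 5.01 CPM in WT libraries (-0.18 ± 0.43, 95% interval -1.13 to 0.78). Jund stood at 6.33, 4.68 and 8.62 CPM in Mx1-Cre KO, at 3.08 and 8.24 CPM in Vav-Cre KO and at 4.36, 5.81 and 6.75 CPM in WT libraries (0.11 ± 0.36, 95% interval -0.68 to 0.90). For all 3 genes the lowest and the highest library overall were knockout libraries, and edgeR gave adjusted p = 0.988, 0.906 and 0.927 for both lines. The intervals leave room for changes of more than 1.45-fold in either direction.

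Egr1, a growth and stress response factor, stood at 72.4, 42.1 and 87.3 CPM in Mx1-Cre KO, at 45.5 and 89.5 CPM in Vav-Cre KO and at 52.2, 77.8 and 86.7 CPM in WT libraries. The 3 groups covered almost the same range (-0.10 ± 0.28 for both lines, 95% interval -0.72 to 0.52, edgeR adjusted p = 0.917). Ier2 stood at 20.5, 16.4 and 25.2 CPM in Mx1-Cre KO, at 18.8 and 28.1 CPM in Vav-Cre KO and at 13.7, 19.0 and 19.1 CPM in WT libraries. It was the 1 gene of the set with no knockout library below the lowest WT library, and its log2 fold change was 0.35 ± 0.22 for both lines (95% interval -0.13 to 0.84, edgeR adjusted p = 0.483).

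The nuclear receptor gene Nr4a1, also known as Nur77, stood at 2.32, 3.05 and 6.21 CPM in Mx1-Cre KO, at 3.19 and 5.21 CPM in Vav-Cre KO and at 4.32, 6.40 and 10.7 CPM in WT libraries. It was lower on average in both lines, but Mx1-Cre KO 3 and Vav-Cre KO 2 lay inside the WT range. The log2 fold change was -0.89 ± 0.46 in Mx1-Cre KO (edgeR adjusted p = 0.368), -0.77 ± 0.52 in Vav-Cre KO (0.572) and -0.83 ± 0.40 with both lines averaged (0.345). Its WT libraries differed 2.48-fold, a wider spread than that of 88.3% of tested genes in WT. Nr4a2, or Nurr1, stood at 6.33, 9.32 and 13.1 CPM in Mx1-Cre KO, at 5.61 and 13.9 CPM in Vav-Cre KO and at 6.87, 8.83 and 10.05 CPM in WT libraries. Its groups overlapped widely (0.17 ± 0.34 for both lines, edgeR adjusted p = 0.871). Nr4a3, the other gene of this family, had no count in any library.

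In the Mx1-Cre KO libraries against WT, edgeR called 0 of the 10 genes, against 2.49% of tested genes. An unadjusted p under 0.05 was reached by 2 of the 10, Fos and Klf4 (16.6% of tested genes), and DESeq2 called 1, Klf4. These were also the 2 genes whose Mx1-Cre KO libraries all lay below all WT libraries, which was so for 14.8% of tested genes. In the Vav-Cre KO libraries edgeR called 0 of 10 (0.511% of tested genes), with 2 at an unadjusted p under 0.05, Fosb and Klf4 (13.4%), and DESeq2 called these 2. The same 2 genes lay wholly below WT there, as did 17.1% of tested genes. Limma-voom called 0 of 10 in each line. Both comparisons share the 3 WT libraries.

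The question whether the constitutive and the inducible knockout differ was put by subtracting the Mx1-Cre effect from the Vav-Cre effect. EdgeR, DESeq2 and limma-voom called 0 of the 10 genes (0.17% of tested genes in edgeR), and 1 gene, Fosb, had an unadjusted p under 0.05 (13.3%). Fosb was also the 1 gene whose Vav-Cre KO libraries both lay below all Mx1-Cre KO libraries (12% of tested genes), with a difference of -1.35 ± 0.48 (95% interval -2.42 to -0.27, edgeR adjusted p = 0.278). Without Vav-Cre KO 2 that difference was -2.81 and passed (adjusted p = 0.0324, range over the 15 alternatives 0.0324 to 0.497). The difference for Fos was 0.31 ± 0.36 (adjusted p = 0.777), or 0.93 without Vav-Cre KO 1 (adjusted p = 0.0139) and -0.82 without Vav-Cre KO 2, so its direction rested on 1 library. For Klf4 it was -0.56 ± 0.43 (95% interval -1.52 to 0.39, adjusted p = 0.629).

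All 10 genes were higher in Vav-Cre KO 2 than in Vav-Cre KO 1, as were 49.9% of all tested genes. The ratio of Vav-Cre KO 2 over Vav-Cre KO 1 was 4.49 for Fosb, 3.89 for Junb, 3.36 for Fos, 2.94 for Klf4, 2.67 for Jund, 2.48 for Nr4a2, 1.97 for Egr1, 1.63 for Nr4a1, 1.496 for Ier2 and 1.40 for Jun. Vav-Cre KO 1 was the lowest of the 8 libraries for 6 genes, and Vav-Cre KO 2 was the highest for 5. Summed over the 9 genes without Klf4, the level was 261, 233 and 315 CPM in Mx1-Cre KO, 164 and 408 CPM in Vav-Cre KO and 319, 370 and 397 CPM in WT libraries. The other groups also had libraries in which most of the genes stood high or low. Mx1-Cre KO 3 was the highest of its group for 8 of the 10, and WT 1 was the lowest of its group for 8.

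**Figure D3:**
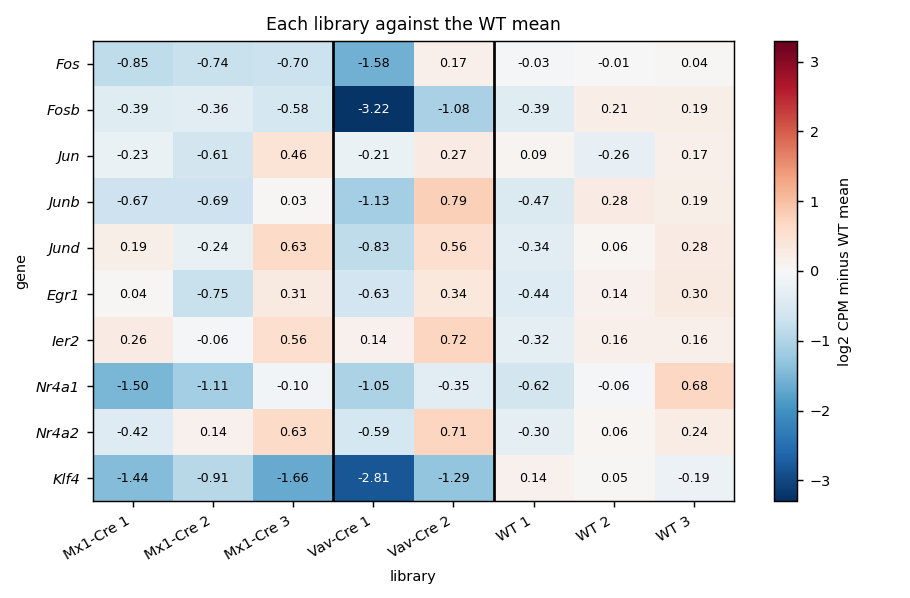
Log2 CPM of each gene (rows) in each library (columns, Mx1-Cre KO, Vav-Cre KO and WT from left to right) minus the mean of the 3 WT libraries, with blue for lower and red for higher. The Klf4 row is blue in all 5 knockout columns, from -2.81 to -0.91, and the column of Vav-Cre KO 1 is blue for 9 of the 10 genes while that of Vav-Cre KO 2 is red for 7.

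Klf4 and Fosb stayed low in the libraries in which most of the other genes were high. In Vav-Cre KO 2 Klf4 stood at 40.3%, Fosb at 46.5% and Nr4a1 at 72.9% of the WT mean, and the other 7 genes at 112 to 170%. In Mx1-Cre KO 3, the library with the highest values of its group for 8 genes, Klf4 and Fosb were the lowest of the group. Likeness between genes was measured as the root mean square difference of log2 CPM, centred on each gene's mean over the 8 libraries, as a description. Jund and Egr1 were the most alike of the 45 pairs (0.212), followed by Jund and Nr4a2 (0.272). Klf4 was nearest to Fosb (0.556) and Fos (0.570) and farthest from Ier2 (1.11). All points share the 8 libraries and their scaling.

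Outside the set, other immediate early response genes were described from a list of 34 genes, of which 32 were tested. With both lines averaged edgeR called 0 higher and 2 lower, at a median log2 fold change of 0.04 (0.000382 for all tested genes). Id2, which encodes an inhibitor of basic helix-loop-helix factors, stood at 3.37, 5.22 and 4.37 CPM in Mx1-Cre KO, at 4.97 and 6.66 CPM in Vav-Cre KO and at 8.65, 14.6 and 16.4 CPM in WT libraries (-1.40 ± 0.27, edgeR adjusted p = 0.0269). Sik1, a salt-inducible kinase gene that CREB is known to induce, stood at 4.57, 6.71 and 4.93 CPM in Mx1-Cre KO, at 3.26 and 3.53 CPM in Vav-Cre KO and at 8.75, 7.45 and 11.05 CPM in WT libraries (-1.08 ± 0.25, adjusted p = 0.0471). In both genes every knockout library lay below every WT library. Id2 was lower in the Mx1-Cre line alone as well (-1.61 ± 0.31, edgeR adjusted p = 0.0272), and in the Vav-Cre line edgeR called 0, with 6 at an unadjusted p under 0.05 and 2 called by DESeq2. The Id2 call with both lines averaged was lost without Mx1-Cre KO 1, Vav-Cre KO 1, WT 2 or WT 3, and the Sik1 call without any 1 library but Mx1-Cre KO 2 (edgeR adjusted p up to 0.153 and 0.245). The Sik1 call was also lost with the replicate number as a block. Of the 32 genes 28 were higher in Vav-Cre KO 2 than in Vav-Cre KO 1. Their median difference was 0.53 on the log2 scale, beside 1.35 for the 10 genes of the set. In the difference between lines edgeR called 0 of 32, with 3 at an unadjusted p under 0.05 and 1 called by DESeq2. Nfkbiz (0.75 ± 0.20, adjusted p = 0.173) and Socs3 (2.12 ± 0.75, 0.271) had the smallest p-values there.

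Relatives of the AP-1 genes were measured in 8 of 11 cases. EdgeR, DESeq2 and limma-voom called 0 of them in all 4 comparisons, with 1 or 2 at an unadjusted p under 0.05 in each. Fosl2, which encodes FRA2, stood at 9.88, 7.91 and 5.57 CPM in Mx1-Cre KO, at 10.7 and 18.7 CPM in Vav-Cre KO and at 11.7, 12.7 and 15.9 CPM in WT libraries (-0.79 ± 0.29 in Mx1-Cre KO, edgeR adjusted p = 0.204). Its Mx1-Cre KO libraries all lay below WT. Batf, which pairs with JUN proteins in lymphocytes, had -0.39 ± 0.15 with both lines averaged (adjusted p = 0.230). Fosl1, Atf3 and Batf3 were at 0 to 0.361 CPM in every library.

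Among 5 of 9 tested relatives of EGR, NR4A and IER genes edgeR called 0 in each of the 4 comparisons, with 1, 1, 1 and 0 at an unadjusted p under 0.05 for both lines, Mx1-Cre, Vav-Cre and the difference. DESeq2 called 1, 1, 0 and 0 and limma-voom 0. Nab2, a corepressor that binds EGR1, stood at 10.8, 7.07 and 15.3 CPM in Mx1-Cre KO, at 8.41 and 15.5 CPM in Vav-Cre KO and at 4.32, 5.45 and 5.76 CPM in WT libraries. Every knockout library lay above every WT library, and the test was not passed (1.15 ± 0.31 for both lines, edgeR adjusted p = 0.0878). Egr2, at 0 to 0.529 CPM, was too low for a firm statement (-2.37 ± 1.09, adjusted p = 0.313).

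Of the other Kruppel-like factor genes 13 of 16 were tested, and edgeR and limma-voom called 0 in each comparison. An unadjusted p under 0.05 was reached by 3 genes for both lines, 3 for Mx1-Cre, 3 for Vav-Cre and 2 for the difference, and DESeq2 called 1, 2, 1 and 1. Klf8 stood at 21.4, 23.5 and 20.5 CPM in Mx1-Cre KO, at 17.9 and 18.3 CPM in Vav-Cre KO and at 14.9, 12.1 and 12.3 CPM in WT libraries, the opposite side of WT from Klf4 (0.60 ± 0.17, edgeR adjusted p = 0.0898). Klf9, a glucocorticoid-induced gene, stood at 25.0, 27.3 and 14.5 CPM in Mx1-Cre KO, at 30.7 and 58.7 CPM in Vav-Cre KO and at 51.5, 36.0 and 37.3 CPM in WT libraries (-0.90 ± 0.30 in Mx1-Cre KO, adjusted p = 0.150). Klf11 stood at 28.1 and 27.0 CPM in Vav-Cre KO and at 58.8, 60.1 and 39.0 CPM in WT libraries (-0.93 ± 0.26, adjusted p = 0.149). The more abundant Klf6 (67.5 to 133 CPM) and Klf13 (283 to 513 CPM) overlapped WT in each line. Klf10 stood at 283, 517 and 227 CPM in Mx1-Cre KO, at 249 and 205 CPM in Vav-Cre KO and at 425, 333 and 259 CPM in WT libraries, so that it overlapped WT in the Mx1-Cre line and lay below it in the Vav-Cre line (-0.58 ± 0.32, edgeR adjusted p = 0.477). The median of the 13 genes was -0.04 with both lines averaged.

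The factors and kinases upstream of immediate early genes were measured in 28 of 28 cases. EdgeR called 0 with both lines averaged (2 at an unadjusted p under 0.05, DESeq2 2, limma-voom 0) and 1 in the Mx1-Cre line, Elk3, which encodes a partner of SRF that can repress. Elk3 stood at 52.8, 64.3 and 53.5 CPM in Mx1-Cre KO, at 78.8 and 83.5 CPM in Vav-Cre KO and at 85.4, 86.1 and 102 CPM in WT libraries. It fell by 0.68 on the log2 scale in Mx1-Cre KO (SE 0.14, edgeR adjusted p = 0.0330). That call was lost with the replicate number as a block and without Mx1-Cre KO 1, Mx1-Cre KO 3 or any 1 WT library (adjusted p up to 0.152). Crem, whose products include repressors at CREs, stood at 5.40, 5.15 and 3.27 CPM in Mx1-Cre KO, at 2.70 and 3.53 CPM in Vav-Cre KO and at 8.35, 6.37 and 7.75 CPM in WT libraries. All 5 knockout libraries lay below WT, and the value did not pass (-0.98 ± 0.27, edgeR adjusted p = 0.0876). In the Vav-Cre line edgeR and limma-voom called 0 of 28 (2 at an unadjusted p under 0.05, DESeq2 1). Feedback phosphatases and inhibitors of MAP kinases, 13 of 14 tested, had 0 calls in each comparison by edgeR, DESeq2 and limma-voom, with 0, 1, 0 and 0 at an unadjusted p under 0.05. Spry4, a receptor signalling inhibitor gene, had the smallest p-value (0.90 ± 0.29 in Mx1-Cre KO, edgeR adjusted p = 0.148).

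Heat shock genes, which also respond to the handling of cells, did not follow the immediate early genes within the Vav-Cre pair. Of 13 tested, 4 were higher in Vav-Cre KO 2 than in Vav-Cre KO 1, against all 10 of the set. The median difference of the 13 was -0.12 on the log2 scale. In the other groups both lists had the same lowest library. The median log2 CPM minus the WT mean of heat shock genes was 0.143, -0.00393 and 0.167 in Mx1-Cre KO 1, 2 and 3. For the 10 genes it was -0.406, -0.651 and 0.169. In WT 1, 2 and 3 heat shock genes had -0.214, 0.118 and 0.0874. The 10 genes had -0.331, 0.0615 and 0.19 there. Hsph1, which encodes a cochaperone of HSP70, was the 1 heat shock gene that edgeR called. DESeq2 called 1 with both lines averaged, 3 in Vav-Cre KO and 2 in the difference between lines, all lower. Hsph1 stood at 93.9, 77.7 and 122 CPM in Mx1-Cre KO, at 47.6 and 41.6 CPM in Vav-Cre KO and at 94.2, 168 and 193 CPM in WT libraries, and fell in Vav-Cre KO (-1.77 ± 0.30, edgeR adjusted p = 0.0376) and with both lines averaged (-1.20 ± 0.22, 0.0229). Leaving out either Vav-Cre KO library, Mx1-Cre KO 1, WT 2 or WT 3 ended the Vav-Cre call (adjusted p up to 0.169). The Vav-Cre call of Hsph1 was also lost with the replicate number as a block. The induced cytosolic genes Hspa1a and Hspa1b were at 0 to 1.06 CPM in every library. The role of handling in the library pattern was not tested.

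**Figure D4:**
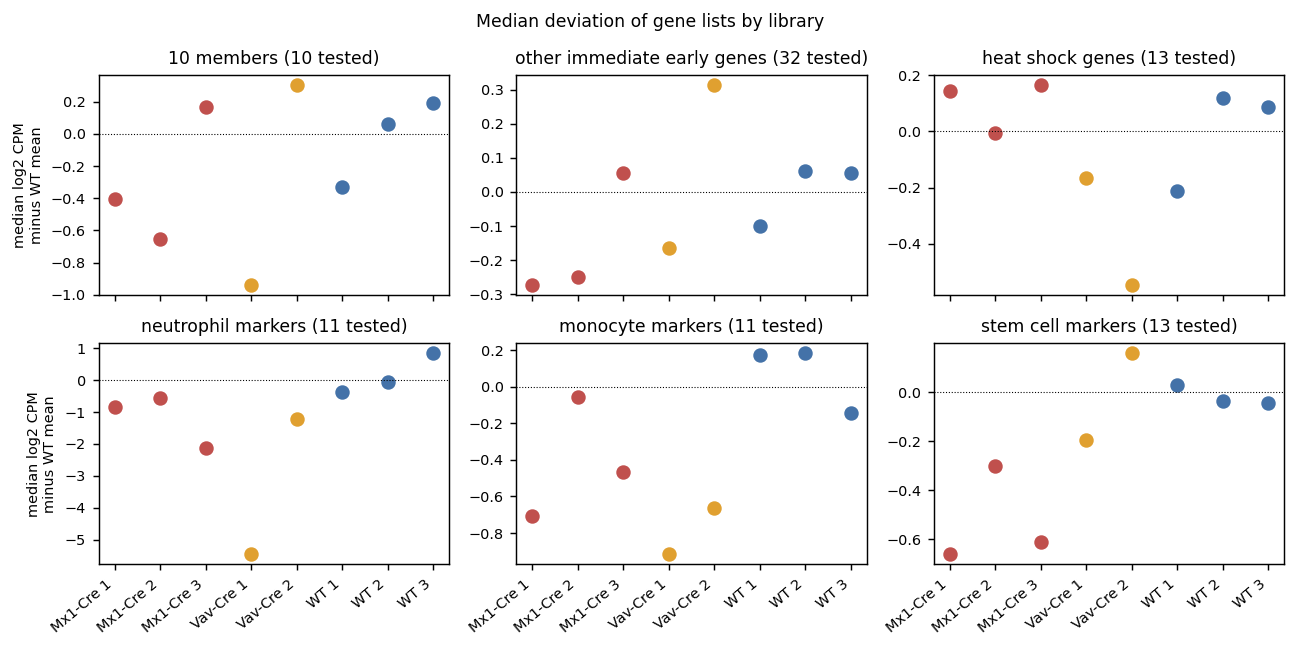
Median over the tested genes of each list of log2 CPM minus the WT mean (y axis, own scale per panel), for each library from Mx1-Cre KO through Vav-Cre KO to WT. Vav-Cre KO 2 lies above Vav-Cre KO 1 for the 10 genes (0.306 and -0.942) and for other immediate early genes (0.315 and -0.163), and below it for heat shock genes (-0.549 and -0.167).

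Markers of some other cell types moved along with the pattern within the Vav-Cre pair. Monocyte and macrophage, stroma and endothelium, and lymphoid markers did not, with median differences of 0.09, 0.10 and 0 on the log2 scale. Of 11 neutrophil markers 10 were higher in Vav-Cre KO 2 than in Vav-Cre KO 1, with a median difference of 2.25 on the log2 scale, as were all 7 tested megakaryocyte markers (0.33) and all 5 tested mast cell and basophil markers (0.95). Of 6 tested erythroid markers 5 were higher in Vav-Cre KO 2 as well, with a median difference of 0.72. Of 11 monocyte and macrophage markers 6 were higher in Vav-Cre KO 2, of 8 stroma and endothelium markers 4 and of 7 lymphoid markers 3. The summed neutrophil markers were 640, 704 and 298 CPM in Mx1-Cre KO, 159 and 627 CPM in Vav-Cre KO and 995, 1083 and 1505 CPM in WT libraries. Mx1-Cre KO 3, the library with the highest immediate early genes of its group, thus had the lowest neutrophil marker sum of that group. The part of these cells in the levels of the 10 genes was not tested.

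Genes known to act with KLF4 on the cell cycle were tested in 9 of 9 cases. Cdkn1a, which encodes the inhibitor p21 and is a known target of KLF4, was higher in Mx1-Cre KO (12.5 ± 7.99 CPM, n = 3) than in WT (2.80 ± 0.840 CPM, n = 3), with a log2 fold change of 2.15 ± 0.45 (edgeR adjusted p = 0.0352). Cdkn1c, which encodes p57, was lower in Mx1-Cre KO (5.13 ± 0.571 CPM) than in WT (16.0 ± 4.95 CPM; -1.64 ± 0.27, edgeR adjusted p = 0.0151). The Cdkn1a call was lost in limma-voom and without Mx1-Cre KO 1 or 3 or any 1 WT library (adjusted p up to 0.159), and the Cdkn1c call without Mx1-Cre KO 1, WT 2 or WT 3 (up to 0.0867). With both lines averaged Cdkn1c was called lower as well (-1.10 ± 0.24, edgeR adjusted p = 0.0376). That call was lost with the replicate block and without Mx1-Cre KO 1 or 3, either Vav-Cre KO library, WT 2 or WT 3. In Vav-Cre KO edgeR, DESeq2 and limma-voom called 0 of the 9, with 1, Cdkn1a, at an unadjusted p under 0.05. Cdkn1a stood at 6.55 and 7.50 CPM there, above every WT library (1.33 ± 0.48, edgeR adjusted p = 0.256).

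The 5 genes whose pattern over the 8 libraries was most like that of Klf4, among 9584 tested genes with a mean log2 CPM of at least 3, were Enc1 (root mean square difference 0.434), Gbp4 (0.442), Myo7a (0.456), Kalrn (0.465) and Sgk1 (0.468). The median over all candidates was 0.979. Myo7a, a myosin gene, stood at 10.99, 8.74 and 11.003 CPM in Mx1-Cre KO, at 4.69 and 5.39 CPM in Vav-Cre KO and at 22.9, 23.4 and 21.001 CPM in WT libraries. All 5 genes lay below every WT library in all 5 knockout libraries, as did 7.28% of tested genes. Klf4 itself does so, and the choice by likeness to it favours such genes. The 5 genes most like Fos were Clic5 (0.170), Sgk1 (0.198), Plekho1 (0.201), Rsad1 (0.216) and the MAP kinase effector gene Mapkapk3 (0.250), with a median of 0.627 over all candidates. Sgk1, a serum- and glucocorticoid-induced kinase gene that is itself on the list of other immediate early genes, was on both lists of 5. It stood at 6.73, 8.27 and 6.89 CPM in Mx1-Cre KO, at 3.99 and 9.64 CPM in Vav-Cre KO and at 13.2, 11.2 and 11.4 CPM in WT libraries. Likeness was the ground on which these genes were chosen, so their folds are not tested here.

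**Figure D5:**
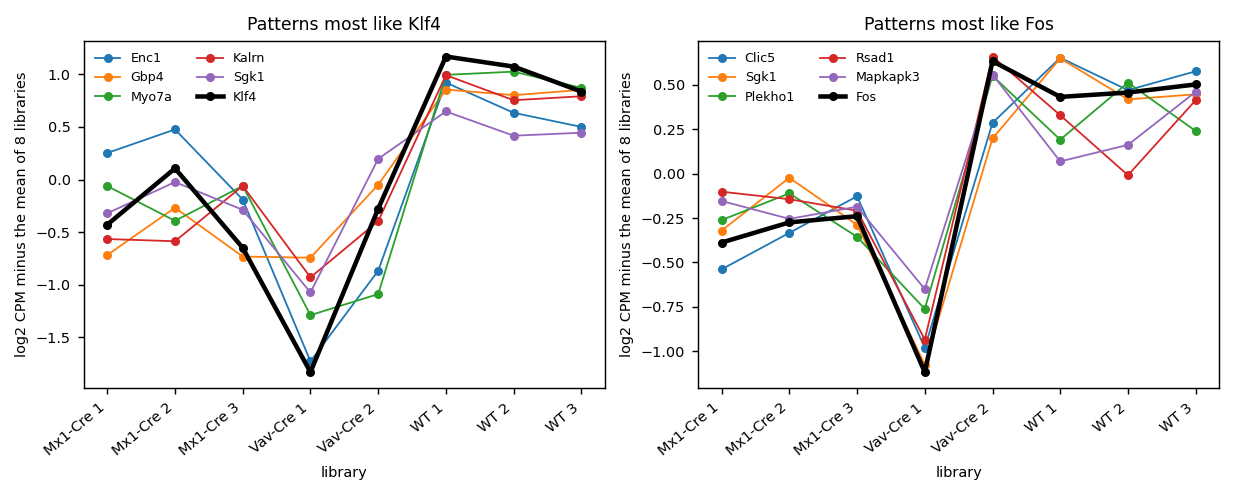
Log2 CPM minus the mean of the 8 libraries (y axis) for Klf4 and the 5 genes most like it (left) and for Fos and the 5 genes most like it (right), by library from Mx1-Cre KO through Vav-Cre KO to WT. Both black lines are lowest in Vav-Cre KO 1, while Fos is highest in Vav-Cre KO 2 and Klf4 is highest in the WT libraries.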

How the data were processed

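RNA was sequenced from 8 libraries of sorted mouse stem cells, grouped by title into Huwe1 KO (Mx1-Cre) (3), Huwe1 KO (Vav-Cre) (2) and WT (3). Per the labels' protocols, cDNA came from a SMARTer Ultra Low Input kit and libraries from a NEBNext kit, unstranded. The submitters' processing notes name mm9 as the build, and HTSeq, TopHat, edgeR and SAMtools as tools. Their versions, the annotation and the counting settings are not stated. The deposited table holds raw counts per gene, which the authors left unnormalized; a second deposited table was not used. No label names molecular identifiers, and intervals do not separate amplification from sampling.

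Counts were tested with edgeR 4.0.16 (R 4.3.3) by the quasi-likelihood test, after filterByExpr (minimum count 10, minimum total 15) and TMM, in 1 fit over 8 libraries with group as the only term. P-values were Benjamini-Hochberg adjusted over 14086 genes. Standard errors were obtained from the F statistic (absolute log2 fold change over its square root), and intervals use them with the moderated residual degrees of freedom. A prior count of 2 entered log2 CPM values of single libraries. The procedure was run on simulated data with known changes. For both lines averaged, Mx1-Cre KO and Vav-Cre KO it recovered 43%, 37% and 22% of 2-fold changes. Of 4-fold changes it recovered 82%, 77% and 71%, with 5, 7 and 2 false calls, so many 2-fold changes would be missed. Estimated within each group, the biological coefficient of variation was 30.5% (Mx1-Cre KO), 36.1% (Vav-Cre KO) and 21.1% (WT).

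The members, gene lists and named genes were chosen with earlier results of these data known. Named from each other list were called genes, at most 4 per comparison, or the 2 with the smallest p, the sorting and monocyte markers, and the 5 genes most like Klf4 and Fos. Markers that were not called are given as counts or sums, and some named values only for 1 comparison. Hspa1a, Hspa1b, Fosl1, Atf3, Batf3, Nr4a3, Cd68, Ms4a6c, Klf6, Klf10 and Klf13 were added after their values were seen. Alternatives were DESeq2 1.42.0, limma-voom (limma 3.58.1), DESeq2 size factors, library totals as the only scaling, no filter on low counts, fits limited to the groups in question, the replicate number as a block, a threshold of 0.1 on the adjusted p, and leaving out 1 library at a time. They were applied to called genes outside the set after seeing the data. Exon lengths and overlaps come from the GENCODE annotation of GRCm38, not the build of the counts.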

Additional observations from a re-analysis of the deposited data

How the results depend on the processing

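Counts over all genes moved with the method, and so did the calls among the 10 genes, which are given below. With both lines averaged 373 genes were called by edgeR, 953 by DESeq2, 218 with the replicate block, 714 at an adjusted p under 0.1 and 22 to 502 with 1 library left out. In Mx1-Cre KO the count was 351, against 1042 by DESeq2, 575 with only the groups compared, 701 at 0.1 and 58 to 565 with 1 library left out. In Vav-Cre KO it was 72, against 599 by DESeq2, 174 without the filter, 20 with the replicate block, 111 with only the groups compared, 236 at 0.1 and 5 to 196 with 1 library left out. For Vav-Cre KO minus Mx1-Cre KO it was 24, against 468 by DESeq2, 0 by limma-voom, 81 without the filter, 9 with the replicate block, 3 with only the groups compared, 76 at 0.1 and 3 to 412 with 1 library left out.

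Of the 10 genes DESeq2 called 2 with both lines averaged, 1 in Mx1-Cre KO and 2 in Vav-Cre KO, and the fit of Mx1-Cre KO and WT alone called 2. With 1 library left out 0 to 3 were called for both lines, 0 to 2 in Mx1-Cre KO, 0 to 2 in Vav-Cre KO and 0 to 1 in the difference between lines. Of 590 single values under alternatives, 515 kept direction and side of the threshold, 16 newly passed, 5 no longer passed, all of them Klf4 with both lines averaged, and 54 changed sign without being called on the other side. The cause of these changes was not tested.

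The replicate block gave 0.0574 for Jun with both lines averaged and 0.0593 for Egr1 in Vav-Cre KO. In Vav-Cre KO limma-voom gave -0.135 for Junb and -0.111 for Jund, and library totals gave -0.00514 for Jund. In the difference between lines Egr1 was -0.00689 by DESeq2, -0.00426 by limma-voom and -0.00674 with DESeq2 size factors, and Nr4a2 was -0.0130 by limma-voom. With 1 library left out, the log2 fold change for both lines ranged from -0.19 to 0.10 for Jun, -0.82 to 0.16 for Junb, -0.33 to 0.38 for Jund, -0.38 to 0.10 for Egr1 and -0.23 to 0.43 for Nr4a2. In Mx1-Cre KO it ranged from -0.42 to 0.16 for Jun, -0.031 to 0.42 for Jund, -0.33 to 0.16 for Egr1 and -0.13 to 0.39 for Nr4a2. In Vav-Cre KO it ranged from -1.58 to 0.17 for Fos, -0.22 to 0.26 for Jun, -1.19 to 0.76 for Junb, -0.87 to 0.55 for Jund, -0.67 to 0.31 for Egr1 and -0.61 to 0.70 for Nr4a2. In the difference between lines it ranged from -0.82 to 0.93 for Fos, -0.15 to 0.46 for Jun, -0.75 to 1.21 for Junb, -1.09 to 0.33 for Jund, -0.56 to 0.41 for Egr1, -0.14 to 0.44 for Ier2, -0.27 to 0.65 for Nr4a1, -0.77 to 0.54 for Nr4a2 and -1.54 to 0.0106 for Klf4.

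The groups share replicate numbers, and the labels do not say what these mark. Deviations from the group mean correlated at -0.0705 to 0.129 between libraries with the same number. Libraries with different numbers gave -0.177 to 0.163. Within groups of 2 or 3 libraries the deviations are tied to each other, so this cannot decide whether the numbers pair the samples. With the number as a block Klf4 with both lines averaged was -1.77 (edgeR adjusted p = 0.0318), and no call among the 10 genes changed. With 2 Vav-Cre KO libraries that differed up to 4.49-fold for these genes, and 50 reads for Klf4 in the lower one, the precision in Vav-Cre KO is limited, and a difference that did not pass is not shown to be absent.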
